A study of Bos taurus with 6 samples.

Results

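PPARA, PPARGC1A and CPT1A, a nuclear receptor, its coactivator and an enzyme that stand at successive steps in the control of fatty acid oxidation, were followed in cattle liver with and without niacin. They were taken by Ensembl gene identifier: ENSBTAG00000008063 for PPARA, ENSBTAG00000017024 for PPARGC1A and ENSBTAG00000021999 for CPT1A. All 3 rows were present among the 23833 genes of the deposited table, and all 3 passed the filter on low counts. The table carries no symbols, so the names rest on Ensembl's cattle annotation and could not be checked against a second source keyed by the same identifiers. Liver biopsies came from Angus x Simmental cattle, with 3 libraries labelled niacin, for rumen-protected niacin (vitamin B3 in a form meant to pass the rumen), and 3 labelled control. Each library has its own animal code, but the labels do not state that each is a separate animal. Both groups were offered the same basal diet of Bermudagrass hay without restriction, with seed of tall fescue free of endophyte, a pellet of corn and soybean meal, and molasses. The sources used here state neither the age of the animals, nor the niacin dose, nor when the biopsies were taken.

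PPARA encodes a nuclear receptor that binds fatty acids and switches on genes for their uptake, activation and oxidation, most of all in fasting liver. PPARGC1A encodes PGC-1alpha, a coactivator that binds to PPARA and other transcription factors and drives mitochondrial biogenesis, fatty acid oxidation and hepatic gluconeogenesis. CPT1A is the liver form of carnitine palmitoyltransferase 1, which joins long-chain fatty acids to carnitine at the outer mitochondrial membrane. That step sets the rate at which fatty acids enter mitochondria for beta-oxidation, it is blocked by malonyl-CoA, and in mouse and human liver the CPT1A gene is itself a target of PPARA. Niacin is a precursor of NAD, an electron acceptor in beta-oxidation. At high doses nicotinic acid also acts on a receptor of fat cells and lowers the release of fatty acids to the liver.

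No change in these 3 genes passed the test. The fitted level with niacin was 0.809 times that of controls for PPARA, 0.811 times for PPARGC1A and 0.821 times for CPT1A, and for each gene the niacin and control libraries overlapped. Of the 3 genes, 0 were called at an adjusted p under 0.05 in edgeR's quasi-likelihood test, and 0 had an unadjusted p under 0.05. DESeq2 and limma-voom also called 0 of 3, with 0 unadjusted p under 0.05. Over all 14839 genes tested in the same fit, 17.7% were called, with 14.2% higher and 3.46% lower with niacin. Both shares moved with single libraries. The lower share was 1.12%, 2.4% and 7.6% without niacin replicates 1, 2 and 3. It was 1.83%, 1.35% and 1.86% without control replicates 1, 2 and 3. The higher share ran from 9.37% to 15.7% with any 1 library left out.

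The libraries held between 48593701 and 111478194 counts. The first principal component of all tested genes, with 57.1% of the variance, placed niacin replicate 3 (48.8) nearer to the controls (-85.2 to -74.9) than niacin replicates 1 and 2 (97.8 and 89.5). Control replicate 2 had the fewest detected genes, 15871, against 17093 and 17423 in the other controls. The fold of each gene is therefore also given without niacin replicate 3 and without control replicate 2. Levels are given as counts per 1e+06 counts (CPM) after TMM scaling, a correction for differences in RNA composition between libraries. They are not divided by transcript length, so levels are compared between libraries for 1 gene and not between genes. In bulk tissue, fewer cells of a type and less RNA per cell cannot be told apart. The markers that would check the liver label could not be looked up, because no identifier other than those of the 3 genes was paired with a symbol.

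PPARA, the receptor, stood at 11.2, 7.19 and 12.5 CPM in niacin replicates 1, 2 and 3, from 619, 760 and 1165 counts. In control replicates 1, 2 and 3 it stood at 18.7, 11.95 and 7.62 CPM, from 1008, 559 and 418 counts. Control replicate 1 was the highest library, niacin replicate 2 and control replicate 3 were the lowest, and the 3 niacin values fell inside or just under the control range. The niacin library was the lower one in 6 of the 9 pairs of a niacin and a control library. Means were 10.3 ± 2.78 CPM in the niacin group and 12.8 ± 5.58 CPM in the control group (SD, n = 3). On the log2 scale, niacin differed from control by -0.31 ± 0.39 (SE; edgeR adjusted p = 0.668). The 95% interval of this difference ran from -1.13 to 0.51, which is from 0.458 to 1.43 times the control level.

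The direction of the PPARA difference rested on control replicate 1. Leaving that library out gave a log2 fold of 0.10 ± 0.43 (SE; edgeR adjusted p = 0.919). The median log2 fold of all genes tested in that fit was 0.13, and relative to this median PPARA stood at -0.03. Without control replicate 3, the lowest control, the log2 fold of PPARA was -0.58 ± 0.43 (SE; edgeR adjusted p = 0.463). The log2 fold of PPARA was -0.50 without niacin replicate 3 and -0.36 without control replicate 2. PPARA was also the gene with the widest spread among the controls, whose highest library was 2.45 times the lowest.

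PPARGC1A, the coactivator, stood at 34.2, 20.4 and 66.5 CPM in niacin replicates 1, 2 and 3, from 1884, 2160 and 6195 counts. In control replicates 1, 2 and 3 it stood at 40.2, 44.3 and 65.0 CPM, from 2169, 2070 and 3568 counts. Niacin replicates 1 and 2 lay under all 3 controls, while niacin replicate 3 and control replicate 3 were the highest. Their order depended on the scaling, since by raw share of counts control replicate 3 was higher, at 73.3 against 67.9 per 1e+06 counts. The niacin library had the lower CPM in 6 of the 9 pairs, and the lower raw share in 7. Means were 40.4 ± 23.7 CPM in the niacin group and 49.8 ± 13.3 CPM in the control group (SD, n = 3). The fitted log2 fold was -0.30 ± 0.39 (SE; edgeR adjusted p = 0.678), with a 95% interval from -1.13 to 0.53, or from 0.456 to 1.44 times the control level.

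PPARGC1A depended most on a single library. Without niacin replicate 3, the niacin library nearest to the controls over all genes, its log2 fold was -0.89 ± 0.34 (SE). The unadjusted p was then 0.0264 and the adjusted p 0.0863 in edgeR's quasi-likelihood test, still short of the threshold. Niacin replicate 3 held the highest PPARGC1A of all libraries, so leaving it out lowers the niacin level by construction. In that fit 3549 of 15214 tested genes were called, against 2622 of 14839 with all 6 libraries. Without niacin replicate 2, the lowest library, the log2 fold was -0.12, without control replicate 3, the highest control, it was -0.07, and without control replicate 2 it was -0.39. Within the niacin group the highest library was 3.26 times the lowest, against 1.62 times among the controls.

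CPT1A, the enzyme of the carnitine shuttle, stood at 74.0, 83.3 and 124 CPM in niacin replicates 1, 2 and 3, from 4072, 8809 and 11544 counts. In control replicates 1, 2 and 3 it stood at 135, 73.9 and 134 CPM, from 7302, 3456 and 7325 counts. Control replicates 1 and 3 lay above all 3 niacin libraries, and control replicate 2 lay level with niacin replicate 1, the lowest of the niacin group. Here too the niacin library was lower in 6 of 9 pairs. Means were 93.8 ± 26.6 CPM in the niacin group and 114 ± 35.0 CPM in the control group (SD, n = 3). The fitted log2 fold was -0.29 ± 0.34 (SE; edgeR adjusted p = 0.646), with a 95% interval from -1.01 to 0.44, or from 0.498 to 1.35 times the control level.

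Without control replicate 2, CPT1A gave a log2 fold of -0.53 ± 0.36 (SE; edgeR adjusted p = 0.412). Without niacin replicate 3 the value was -0.58 ± 0.34 (SE; edgeR adjusted p = 0.246). It shrank to -0.13 without control replicate 1, to -0.14 without niacin replicate 1 and to -0.17 without control replicate 3.

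**Figure D1:**
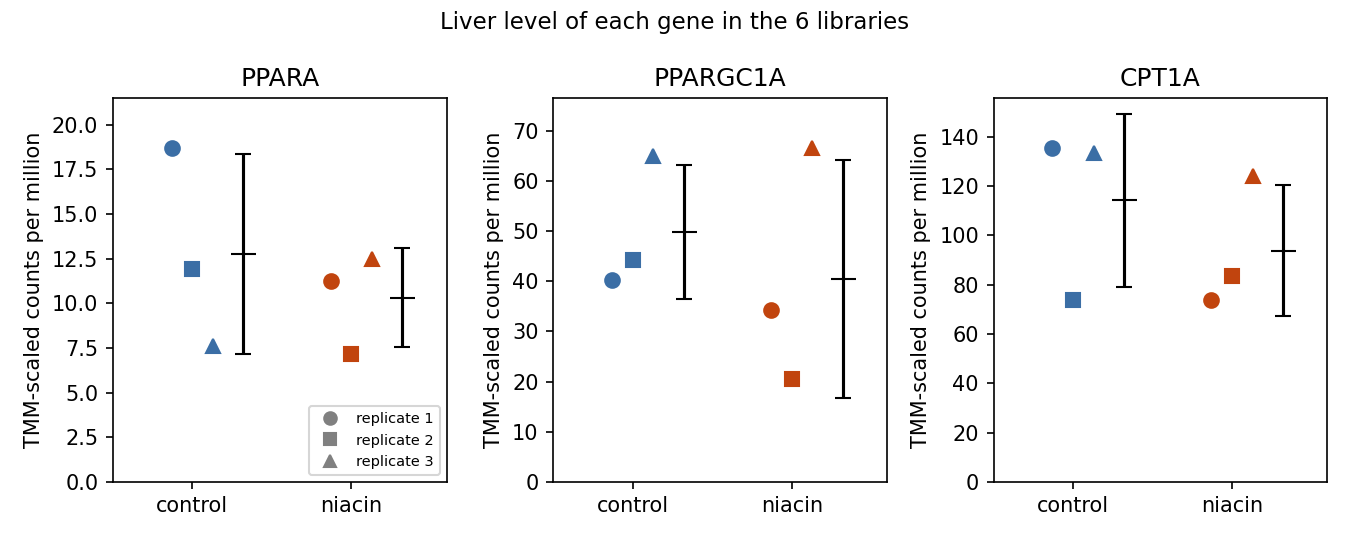
TMM-scaled CPM of PPARA, PPARGC1A and CPT1A in each library, with circles, squares and triangles for replicates 1, 2 and 3, and bars for the mean ± SD of 3 libraries. The control (blue) and niacin (red) points overlap in every panel, with means of 12.8 and 10.3 CPM for PPARA, 49.8 and 40.4 CPM for PPARGC1A, and 114 and 93.8 CPM for CPT1A; the replicate numbers do not pair libraries across groups.

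Counting error alone, taken as the square root of the count, was at most 4.89% of the value for PPARA, 2.3% for PPARGC1A and 1.70% for CPT1A. The coefficient of variation between libraries of a group was 26.9% with niacin and 43.8% in controls for PPARA. It was 58.6% and 26.7% for PPARGC1A, and 28.3% and 30.6% for CPT1A, in the same order. The biological coefficients of variation estimated by edgeR were 0.357 for PPARA, 0.357 for PPARGC1A and 0.315 for CPT1A. The median over all genes tested was 0.379. These estimates are drawn toward the trend over all genes, so nearness to the median is partly built in. Counting error covers the sampling of reads only, and the reads carried no molecular identifiers that would tell copies of a molecule apart.

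The folds of the 3 genes were below the median size over all genes. All tested genes had a median log2 fold of 0.07, and the median size of a fold, either direction, was 0.58. A smaller fold than that of PPARA was found in 28.6% of tested genes, than that of PPARGC1A in 28.3% and than that of CPT1A in 26.8%. A smaller p was found for 66.0% of tested genes in the case of PPARA, 66.7% for PPARGC1A and 64.3% for CPT1A. The groups did not overlap for 34.4% of all tested genes and for 0 of these 3.

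**Figure D2:**
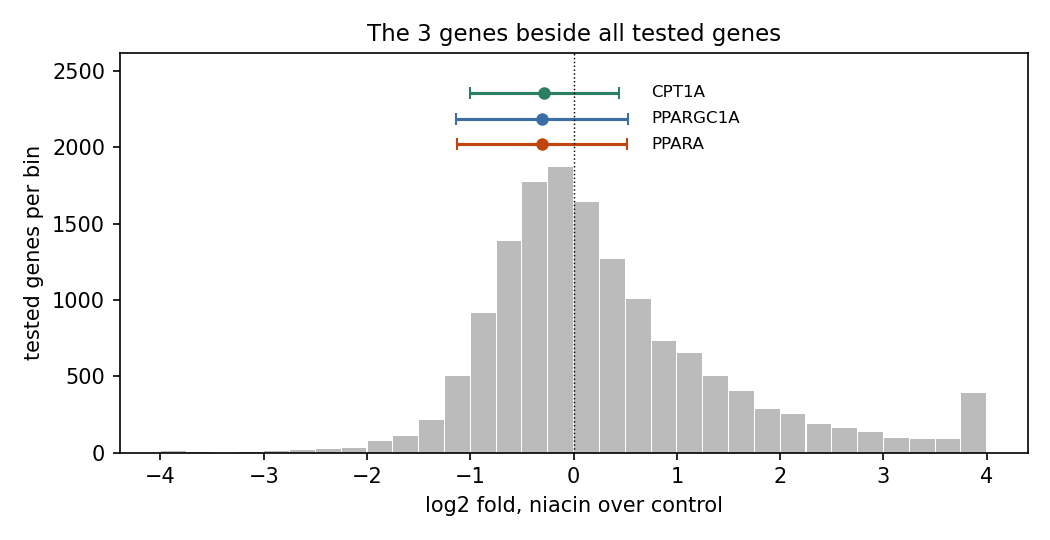
Number of tested genes (vertical axis) by log2 fold, niacin over control (horizontal axis, bins of 0.25, with folds beyond 4 in either direction placed in the end bins); points and bars above show the log2 fold and 95% interval of each gene. The 3 points lie between -0.31 and -0.29, near the middle of the distribution, and each interval spans 0.

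The raw share of all counts uses no scaling factor, and by this measure too the groups overlapped for each gene. Per 1e+06 counts of the library total, PPARA took up 10.3 ± 3.11 in the niacin group and 12.6 ± 4.59 in the control group (SD, n = 3), with a two-sided exact permutation p of 0.5. PPARGC1A took up 40.6 ± 24.8 with niacin and 51.3 ± 19.3 in controls, with an exact permutation p of 0.5. CPT1A took up 93.4 ± 28.8 with niacin and 116 ± 40.8 in controls, with an exact permutation p of 0.6. Adjusted over the 3 genes, each p was 0.6, and 3 libraries against 3 cannot give less than 0.1. Summed over the 3 genes, the share per 1e+06 counts was 121, 105 and 207 for the niacin libraries and 183, 125 and 232 for the controls, in order of replicate number (exact permutation p = 0.5). Niacin replicate 3 and control replicate 3 were the highest of their groups, and the groups overlapped.

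The rank of a gene by raw count within its own library also needs no scaling. PPARA ranked 6044, 7343 and 5850 in the niacin libraries 1, 2 and 3, among 17557, 18083 and 18185 detected genes. Its ranks were 4314, 5651 and 6803 for controls 1, 2 and 3, among 17093, 15871 and 17423 detected genes. CPT1A ranked 1670, 1486 and 950 with niacin and 910, 1675 and 841 in controls. PPARGC1A ranked 3114, 4452 and 1721 with niacin and 2568, 2515 and 1657 in controls. By rank as by CPM, niacin replicate 2 held PPARA and PPARGC1A at their lowest. Ranks by count depend on transcript length and describe the same gene across libraries only.

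The genes were next set against each other inside each library. A ratio of 2 genes' counts in 1 library is free of library scaling, and its difference between libraries is free of transcript length. The log2 ratio of PPARGC1A to PPARA counts was 1.61, 1.51 and 2.41 for niacin replicates 1, 2 and 3. For control replicates 1, 2 and 3 it was 1.11, 1.89 and 3.09. Coactivator and receptor kept no fixed proportion in either group, and the controls alone spanned the whole range seen. Means were 1.84 ± 0.50 in the niacin group and 2.03 ± 1.0 in the control group (SD, n = 3), a difference of -0.19 with an exact permutation p of 0.8.

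The log2 ratio of CPT1A to PPARA counts was 2.72, 3.53 and 3.31 for niacin replicates 1, 2 and 3. For control replicates 1, 2 and 3 it was 2.86, 2.63 and 4.13. The niacin values lay inside the control range, with means of 3.19 ± 0.42 and 3.20 ± 0.81 (SD, n = 3 each), a difference of -0.02 and an exact permutation p of 1. The log2 ratio of CPT1A to PPARGC1A counts was 1.11, 2.03 and 0.90 with niacin and 1.75, 0.74 and 1.04 in controls, in the same order of replicates. Its means were 1.35 ± 0.60 and 1.18 ± 0.52 (SD, n = 3 each), a difference of 0.17 with an exact permutation p of 0.6. Over the 3 pairs, each adjusted p was 1. The sign of each of these differences turned when 1 library was left out: without control replicate 3 for PPARGC1A to PPARA (0.34), without niacin replicate 1 (0.22) or control replicate 3 (0.44) for CPT1A to PPARA, and without niacin replicate 2 (-0.17) or control replicate 2 (-0.05) for CPT1A to PPARGC1A.

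**Figure D3:**
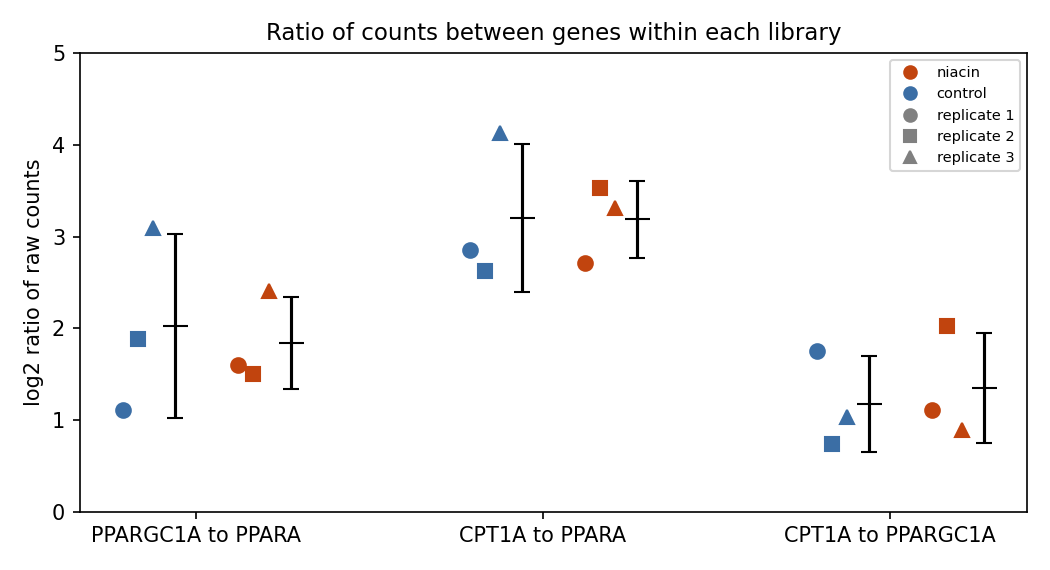
Log2 ratio of raw counts between genes within each library (vertical axis) for the 3 pairs, with control libraries in blue, niacin libraries in red, a marker shape for each replicate, and bars for the mean ± SD of 3 libraries. The groups overlap for each pair, and control replicate 3 (blue triangle) has the highest PPARGC1A to PPARA and CPT1A to PPARA ratios, 3.09 and 4.13.

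Libraries differed in which of the 3 genes was high. Control replicate 1 combined the highest PPARA (18.7 CPM) and a CPT1A of 135 CPM with the lowest PPARGC1A of the controls (40.2 CPM). Control replicate 3 combined the lowest PPARA of the controls (7.62 CPM) with their highest PPARGC1A (65.0 CPM) and a CPT1A of 134 CPM. The receptor and the coactivator thus stood in opposite order in these control libraries. Their CPT1A was close after TMM scaling, while by raw share it was 127 per 1e+06 counts in replicate 1 and 150.5 in replicate 3. With niacin, replicate 3 was the highest of its group for all 3 genes, at 12.5, 66.5 and 124 CPM, and PPARA and PPARGC1A were both lowest in replicate 2, at 7.19 and 20.4 CPM. With 3 libraries a group, no relation between the genes was tested.

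The middle part of the code in each sample description ends in M or F, a letter whose meaning is not stated. Each group holds 2 libraries with M and 1 with F. Between the M libraries the mean difference in log2 CPM, niacin minus control, was -0.01 for PPARA, -0.10 for PPARGC1A and -0.49 for CPT1A. The F libraries are niacin replicate 2 and control replicate 2, 1 in each group and so without a replicate. Between them the difference was -0.73 for PPARA, -1.11 for PPARGC1A and 0.17 for CPT1A. The difference was thus wider in the F pair for PPARA and PPARGC1A, while CPT1A was lower with niacin in the M libraries and higher in the F pair. Niacin replicate 2 was the lowest of all libraries for PPARA and PPARGC1A, and control replicate 2 the lowest for CPT1A. The letter F therefore cannot be told apart from these single libraries. Whether the difference depends on the letter was not tested.

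Other genes with a near profile over the 6 libraries were more numerous for CPT1A and PPARGC1A than for PPARA. Likeness was measured as the root mean square difference of log2 CPM after each gene was centred on its own mean. Of 14838 other tested genes, 141 lay within 0.2 log2 units of CPT1A, 85 of PPARGC1A and 16 of PPARA. The root mean square departure of each gene from its own mean was 0.39 for CPT1A, 0.58 for PPARGC1A and 0.46 for PPARA. How many genes lie that near to other tested genes was not counted. The gene nearest to CPT1A was ENSBTAG00000003177, at 0.04 log2 units over the 6 libraries, and the gene nearest to PPARGC1A was ENSBTAG00000005243, at 0.07. The gene nearest to PPARA was less close, at 0.12 log2 units, with a fitted log2 fold of -0.42. The genes nearest to CPT1A and PPARGC1A had log2 folds of -0.31 and -0.32, values that the choice by profile over the same libraries largely fixes. The sources used here give no name for any of them.

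The counts are totals per gene and do not separate transcripts. By symbol, the RefSeq table for assembly ARS-UCD2.0 lists 1 protein-coding entry for each gene, with 5 transcript models for PPARA, 12 for PPARGC1A and 6 for CPT1A. The span of PPARGC1A holds 2 short RNA genes, a tRNA and an snRNA, and the spans of PPARA and CPT1A overlap 0 other entries.

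**Figure D4:**
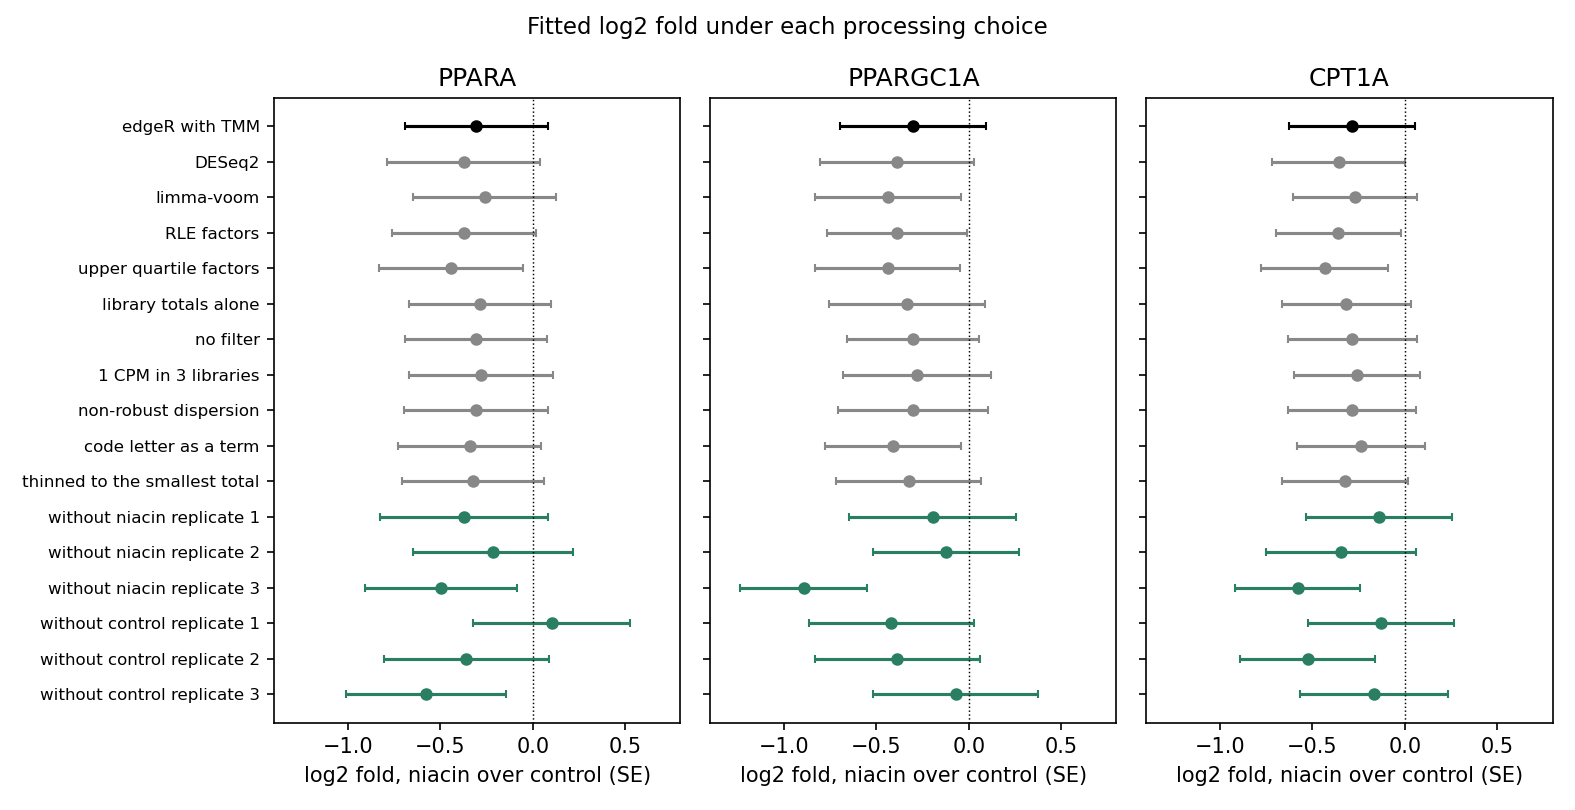
Log2 fold, niacin over control, of each gene (horizontal axis, bars are 1 SE) under the fit reported, in black, under other tools, scalings, filters and models, in grey, and with 1 library left out, in green. The points of edgeR with all 6 libraries lie between -0.44 and -0.24 whatever the scaling, filter, depth or model; the left-out libraries move them further, to -0.89 for PPARGC1A without niacin replicate 3 and to 0.10 for PPARA without control replicate 1.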

How the data were processed

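The authors deposited raw counts per Ensembl gene for 6 liver libraries, poly(A)-selected and made with a directional kit per the labels' protocols. The submitters' processing notes name HTSeq, DESeq2, TopHat2 2.1.1, Trimmomatic 0.36, FastQC 11.5, Cufflinks 2.2.1 and bedtools 2.30.0, with no role or order. The genome build, the annotation release and whether counting used strand were not given in the sources used here, so no coordinates are given.

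Groups follow the agent label, which the sample titles repeat. The description codes contain NCN in niacin and TNC in control libraries, letters that are not explained. If the agent label were the wrong one, every signed difference would turn, the split of higher and lower genes included. Each library has its own animal code, but separate animals are not stated, so p-values reflect only the spread between libraries, which may be technical. The genes, lists and tests were chosen with earlier results of these data known. The rule for named genes was the 3 genes and, for each, the gene of nearest profile, with at most 2 falling genes given by identifier. Lists of other oxidation genes and of cell type markers could not be applied: 0 of 37063 RefSeq entries carried an Ensembl identifier.

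Genes were filtered with filterByExpr (minimum count 10), scaled with TMM and compared with edgeR 4.0.16 (R 4.3.3, quasi-likelihood F test, robust), and p-values were adjusted by Benjamini-Hochberg across every tested gene, with calls at an adjusted p under 0.05. The SE is the log2 fold over the square root of F. Ratios used a pseudocount of 0.5. The test was checked on simulated data. Alternatives were DESeq2 1.42.0, limma-voom (limma 3.58.1), other scalings, filters, depths and models, and each library left out in turn.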

Additional observations from a re-analysis of the deposited data

How the results depend on the processing

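Of 17 alternatives, 1 changed only the threshold, to an adjusted p under 0.10, and so left every fold as it was. The others kept the threshold of 0.05. In none did PPARA, PPARGC1A or CPT1A pass the threshold used. Their adjusted p (edgeR, DESeq2 or limma) ran from 0.417 to 0.919, 0.0863 to 0.953 and 0.246 to 0.898. Other tools, scalings, filters, depth or the code letter as a term left the log2 folds between -0.44 and -0.26 for PPARA, -0.44 and -0.28 for PPARGC1A and -0.43 and -0.24 for CPT1A. With 1 library left out they ran from -0.58 to 0.10, from -0.89 to -0.07 and from -0.58 to -0.13. The single change of sign was PPARA without control replicate 1 (0.10, or -0.03 relative to the median log2 fold of all genes in that fit). Upper quartile factors moved the median log2 fold of all genes from 0.07 to -0.07. Relative to that median the folds were -0.38, -0.37 and -0.37 for PPARA, PPARGC1A and CPT1A, against -0.37, -0.37 and -0.35 with TMM. Calls over all genes numbered 2622, of which 80.4% were higher. They ran from 1653 to 3549 with 1 library left out (fewest without niacin replicate 1) and from 2396 (a filter of 1 CPM in 3 libraries) to 3323 (DESeq2) otherwise at an adjusted p under 0.05. The number of genes tested also differed, at 14839 in the fit reported, 11842 with the CPM filter and 20231 with DESeq2, so these counts are not shares. There were 3433 at an adjusted p under 0.10. The share higher was 69.6% with upper quartile factors and 71.6% with DESeq2. With 1 library left out it ran from 67.4% (without niacin replicate 3) to 90.2% (without control replicate 2). The difference in log2 ratio ran from -0.65 to 0.34 (PPARGC1A to PPARA), from -0.31 to 0.44 (CPT1A to PPARA) and from -0.17 to 0.46 (CPT1A to PPARGC1A) with 1 library left out. It kept its sign after thinning to 1 common library total. It also kept its sign with other pseudocounts, which could hardly move it, since the smallest count of the 3 genes was 418. The summed share, niacin minus control, was -35.8 per 1e+06 counts, and from -67.2 to -9.64 with 1 library left out. The causes of these moves were not tested. Thinning to the smallest total left the folds at -0.32, -0.33 and -0.32. No paired analysis was possible because no label pairs each niacin library with a control library. Replicate numbers follow the order of the samples within each group.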
